A study of Mus musculus with 6 samples.

Results

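Fibril-associated collagens are the collagens that decorate the surface of collagen fibrils instead of forming fibrils themselves. They have short triple helices broken by flexible interruptions and large non-collagenous ends that reach away from the fibril. In the transparent corneal stroma, where fibrils must stay thin and evenly spaced, members of this family are known for linking fibrils to proteoglycans and to neighbouring matrix. The 9 members were taken by gene symbol from the table of 17606 genes: the type IX chains Col9a1, Col9a2 and Col9a3, then Col12a1, Col14a1, Col16a1, Col19a1, Col20a1 and Col22a1. All 9 were in the table, and 8 had enough counts to enter the test, which covered 13888 genes; Col9a2 did not.

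The libraries came from mouse corneal keratocytes, the fibroblast-like cells of the corneal stroma, sorted by FACS. There were 3 control libraries from mice labelled WT or ctrl and 3 libraries from Prrx1-creERT;Ptch1 mice, here called Ptch1-ablated. Ptch1 is the receptor that holds the Hedgehog pathway off, and the comparison asks what stromal cells express once that brake is removed. All mice were 10 weeks old and all received 3 doses of tamoxifen (TAM), with cells taken after 1 month; the labels do not say whether controls carried the Cre. The study describes Prrx1-CreERT activity in keratocytes and also in corneal endothelium and other mesenchyme of the eye, so the deletion was not limited to the sorted cell type. The study calls the libraries biological replicates, but the labels do not tie each to its own animal, and p-values measure the spread between these libraries.

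The libraries held between 20258439 and 24788063 estimated counts. Gli1, a Hedgehog target, had 1 to 36 counts in the controls and 3022 to 3098 in the ablated libraries, in the direction the labels give. Ptch1 itself, which is also a Hedgehog target, had 104 to 369 counts in the controls and 4348 to 6230 in the ablated libraries; a count over the whole gene does not show the deleted exons and is no check of the deletion. Keratocyte markers were abundant in every library, with a summed TPM of 61200 to 64900 in the controls and 42500 to 47000 in the ablated group, and 5 of the 6 tested markers fell. In bulk samples such as these, fewer cells of a type and less RNA per cell cannot be told apart.

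Members are called higher or lower where the edgeR quasi-likelihood test gave an adjusted p of at most 0.05 over all tested genes. By that rule 2 of the 8 tested members rose, Col9a1 and Col22a1, against 4.68% of all tested genes that rose. Another 2 fell, Col14a1 and Col20a1, against 3.80% of all tested genes, and 4 did not pass. With the added requirement of a 2-fold change, both risers stayed, against a background of 3.36%, and of the fallers only Col20a1 stayed, against 2.13%. The median log2 fold change was -0.14 over the 8 tested members and 0.01 over all tested genes. Col22a1 passed the filter on low counts only through the ablated libraries, so it could enter the test only as a riser. Neither that median nor the count of risers therefore describes all 9 members.

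Levels differed over several orders of magnitude between members. In TPM, a transcript abundance scaled for gene length and library size, Col12a1 was highest in the controls at 788 ± 30.1 (SD, n = 3), followed by Col16a1 at 306.9 ± 68.1 and Col14a1 at 54.56 ± 13.4. Col9a1 at 13.06 ± 1.99 TPM and Col20a1 at 11.11 ± 3.11 TPM came next, and their control libraries overlapped. Col9a3, Col19a1, Col9a2 and Col22a1 each had at least 1 control library at 0 TPM, and their ranges overlapped at the bottom of the order. In the ablated group the order of these means stayed the same: Col12a1, Col16a1, Col14a1, Col9a1 and Col20a1. Only the overlaps differed, with the libraries of Col14a1 and Col9a1 now overlapping and those of Col9a1 and Col20a1 apart.

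**Figure D1:**
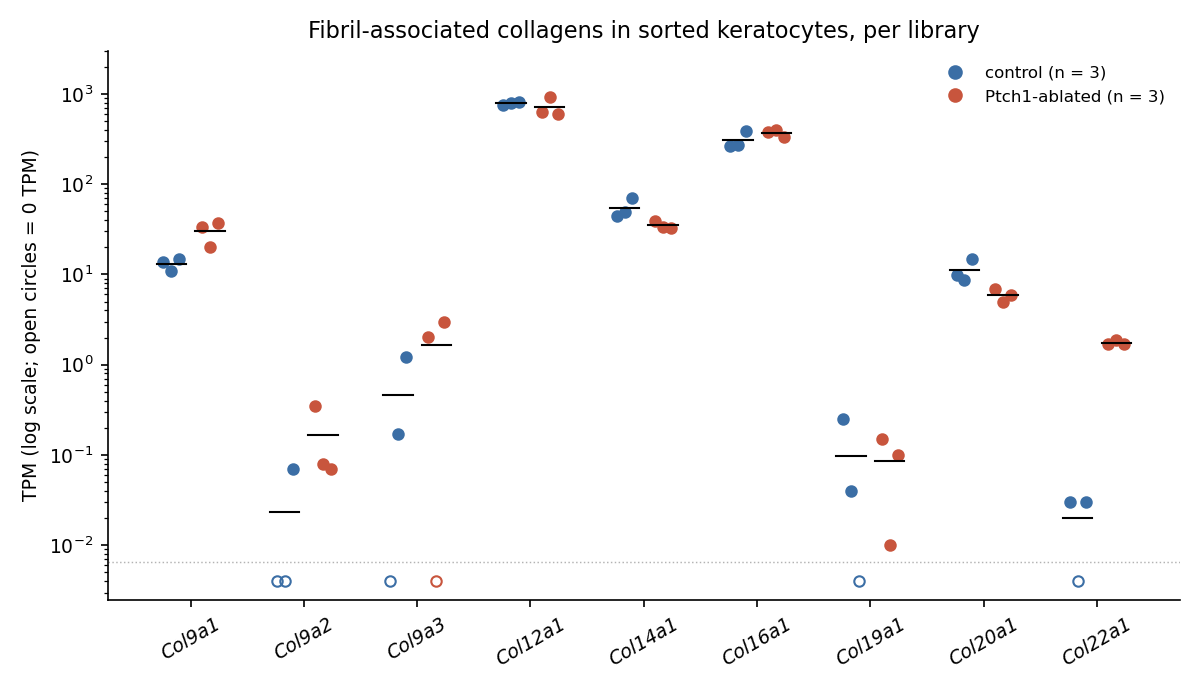
TPM of the 9 members in each of the 3 control and 3 Ptch1-ablated libraries, on a log axis, with lines at group means and open circles for libraries listed at 0. Col9a1 and Col22a1 sit higher in every ablated library, Col14a1 and Col20a1 sit lower, and Col12a1 and Col16a1 dominate in both groups.

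The type IX chains normally assemble as a trimer of 1 chain each from Col9a1, Col9a2 and Col9a3, best known from cartilage, where it is crosslinked to the surface of type II fibrils. A short form of Col9a1 that starts at a promoter further downstream, and lacks a globular amino-terminal domain, is known from eye tissues. Col9a1 had 435, 299 and 469 counts in control libraries 1 to 3, against 990, 555 and 1191 after ablation. Every ablated library was above every control library, although the lowest ablated library was close to the highest control. Col9a1 rose by 1.02 ± 0.29 on the log2 scale (SE; 2.02-fold; edgeR adjusted p = 0.0499). That call lay at the threshold: it was lost in 7 of 15 alternative settings, among them every omission of a single library other than ablated replicate 2, with the log2 fold change ranging from 0.81 to 1.27.

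The partner chains did not reach comparable levels. Col9a2 had 0, 0 and 2 counts in control libraries, against 9, 2 and 2 after ablation, too few to test. Col9a3, rounded to whole counts, had 0, 5 and 36 in control libraries, against 54, 0 and 84 after ablation, so that each group held a library at 0 (log2 fold change 1.61 ± 1.67, adjusted p = 0.664). Col9a3 also overlaps Tcfl5 in the RefSeq annotation, and since the strand used in counting was not stated, its counts cannot be assigned to it with certainty. In the ablated group Col9a1 averaged 30.24 ± 8.95 TPM, while the highest single library of Col9a3 had 2.98 TPM and that of Col9a2 had 0.35 TPM.

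The counts and FPKM values (fragments per kilobase of transcript, scaled to library size) together give the transcript length that the authors' quantification used for a gene, after subtraction of roughly a fragment length. For Col9a1 this effective length was 2862 to 2866 bases in the controls and 2857 to 2868 bases in the ablated libraries. GENCODE models of Col9a1 have 3834 bases for the long form and 3059 bases for the short form. After subtracting the typical difference seen over 269 genes with a single transcript, these would give effective lengths of 3598 and 2823 bases. The deposited values were thus nearer to the short form in all 6 libraries and did not shift between the groups. The annotation release used by the authors is not given in the sources used here, so it is not known whether the long form could have been counted.

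The starts of both Col9a1 forms lie on the plus strand of chromosome 1 (RefSeq, GRCm38.p6), and the 250 bases before each are shown because the forms differ in their promoters. The upstream stretch is chr1:24177360-24177609 and the downstream stretch, before the short form, is chr1:24194953-24195202. Those before Col20a1 (chr2:180986285-180986534, plus strand) and Col16a1 (chr4:130047590-130047839, plus strand) are shown beside them for their difference in CpG content. Capitals mark CG dinucleotides.
Col9a1 upstream start: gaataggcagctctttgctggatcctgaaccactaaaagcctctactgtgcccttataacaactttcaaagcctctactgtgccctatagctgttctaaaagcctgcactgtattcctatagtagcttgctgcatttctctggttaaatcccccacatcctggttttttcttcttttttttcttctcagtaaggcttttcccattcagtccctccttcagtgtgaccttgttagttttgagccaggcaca
Col9a1 downstream start: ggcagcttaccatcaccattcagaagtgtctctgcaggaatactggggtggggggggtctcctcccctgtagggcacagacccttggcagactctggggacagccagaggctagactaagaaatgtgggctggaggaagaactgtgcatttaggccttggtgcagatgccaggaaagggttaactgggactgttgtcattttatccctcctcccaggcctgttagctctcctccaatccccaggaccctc
Col20a1: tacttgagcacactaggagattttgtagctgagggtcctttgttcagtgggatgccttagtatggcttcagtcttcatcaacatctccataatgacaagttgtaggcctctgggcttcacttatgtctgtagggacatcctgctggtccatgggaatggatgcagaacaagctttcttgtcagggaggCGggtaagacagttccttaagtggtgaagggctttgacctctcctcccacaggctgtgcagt
Col16a1: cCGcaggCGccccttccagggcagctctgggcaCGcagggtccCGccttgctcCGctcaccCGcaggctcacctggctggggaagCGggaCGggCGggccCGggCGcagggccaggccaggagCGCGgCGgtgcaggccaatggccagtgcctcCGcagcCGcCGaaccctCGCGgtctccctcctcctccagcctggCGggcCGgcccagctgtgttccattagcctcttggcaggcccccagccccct

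RefSeq promoters were at hand for 5 of the 9 members, with 6 starts. Neither Col9a1 stretch held a CG dinucleotide and that of Col20a1 held 1, whereas that of Col16a1 held 21, with 75.6% G and C. The stretch of Col9a2 held 9 and that of Col19a1 held 10, against a median of 6 over 32851 mouse promoters of the same length. Col9a1, which rose, and Col20a1, which fell, therefore had promoters poor in CG. Col16a1 had a CG-rich one and Col19a1 one with 10, and neither gene passed the test. No promoter was at hand for Col9a3, Col12a1, Col14a1 and Col22a1, and a relation between CG content and change was not tested. The core sequence bound by Gli factors, TGGGTGGTC, searched on both strands, was in none of the 6 stretches and in 0.225% of all promoters. No match says only that these letters are absent from this window.

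Col12a1 and Col14a1 encode closely related homotrimers that attach to type I fibrils; type XII collagen is known to bind decorin, fibromodulin and tenascin-X, and type XIV collagen binds decorin. Col12a1 had 93179, 86346 and 102287 counts in control libraries, against 72745, 99100 and 75612 after ablation. Scaled for library size with TMM factors (CPM, counts per 1e+06), it averaged 4429 ± 139 in the controls and 3449 ± 657 in the ablated group, and the groups did not overlap. On the TPM scale they did overlap, with 754 to 812 in the controls and 602 to 913 in the ablated libraries. The log2 fold change of -0.36 ± 0.13 did not pass the test (edgeR adjusted p = 0.113). Ablated replicate 2 was the high library in that group, and without it the log2 fold change was -0.52 with an adjusted p of 0.0077. That was the only 1 of 15 alternative settings in which Col12a1 passed. Leaving out any other single library gave adjusted p from 0.152 to 0.282. On log2(TPM + 1), limma gave a log2 fold change of -0.16 (adjusted p = 0.544).

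Col14a1 had 3016, 2893 and 4760 counts in control libraries, against 2441, 1974 and 2238 after ablation. The ablated libraries were all lower, and control replicate 3 stood above the other controls. The fall was -0.84 ± 0.18 on the log2 scale (1.79-fold lower, edgeR adjusted p = 0.0125). Without control replicate 3 it was -0.65 with an adjusted p of 0.056, without ablated replicate 2 it was -0.77 (0.0628) and without ablated replicate 3 it was -0.83 (0.06).

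Although Col14a1 passed the test and Col12a1 did not, their changes were not distinguishable from each other. Col12a1 had 30.9, 29.8 and 21.5 counts per count of Col14a1 in control libraries, against 29.8, 50.2 and 33.8 after ablation. The groups overlapped, and the log2 ratio differed by 0.45 (exact permutation test, two-sided, p = 0.3; 0.36 after adjustment over 6 ratios). With 3 against 3 libraries the smallest p that test can give is 0.1.

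Type XVI collagen is a minor component that joins fibrils or microfibrils depending on the tissue, and type XIX collagen is found near basement membranes. Col16a1 had 13499, 12706 and 20594 counts in control libraries, against 18909, 18251 and 17831 after ablation. Counts of the ablated libraries all lay inside the range of the controls (log2 fold change 0.07 ± 0.15, adjusted p = 0.858). On the TPM scale the groups also overlapped, with 262 to 385 in the controls and 332 to 398 in the ablated libraries, and limma on log2(TPM + 1) gave a log2 fold change of 0.29 (adjusted p = 0.284). The sign turned to -0.04 without control replicate 1. Col19a1, the neighbour of Col9a1 on chromosome 1, had 29, 4 and 0 counts in control libraries, against 16, 1 and 12 after ablation. Such counts allowed no direction to be read (log2 fold change -0.35 ± 1.57, adjusted p = 0.945), whereas the adjacent Col9a1 was counted well above its floor in every library.

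Col20a1 and Col22a1 are less studied members; type XXII collagen is known from tissue junctions, above all the junction of muscle and tendon. Col20a1 had 512, 385 and 781 counts in control libraries, against 351, 228 and 286 after ablation. All ablated libraries lay below all controls, and Col20a1 fell by 1.11 ± 0.30 on the log2 scale (2.16-fold lower, edgeR adjusted p = 0.042). The call was lost when any of the 6 libraries was left out, with log2 fold changes from -1.29 to -0.86 and adjusted p from 0.0535 to 0.161. Its direction was the same in all 15 alternative settings.

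Col22a1 had 2, 0 and 2 counts in control libraries, against 104, 109 and 132 after ablation. The 3 ablated libraries were within a narrow range and the controls were at or under 3 counts, the floor that an observed 0 allows. Against the highest such floor, 0.158 CPM, Col22a1 was 30.4-fold higher in the ablated group, and 28.1-fold higher in its lowest library (edgeR adjusted p = 0.00333). Control replicates 1 and 3 held about 2 counts, for which 3 counts is not an upper limit. These folds are therefore not strict lower bounds. It passed the test in all 15 alternative settings, with adjusted p of at most 0.0267. In the reported analysis, however, Col22a1 entered the test only through the ablated libraries and could only rise. Its level stayed low, at 1.747 ± 0.107 TPM, which was 0.136% to 0.166% of the summed TPM of the family. Its effective length ranged from 5982 to 7014 bases over the 3 ablated libraries, between models of the gene, so its TPM carries that uncertainty as well.

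Scaled counts of the groups did not overlap for 5 of the 8 tested members. Col9a1 and Col22a1 were higher, against 14.1% of all tested genes, and Col12a1, Col14a1 and Col20a1 were lower, against 13.3%. Col22a1 was tested only because of its counts in the ablated libraries, so it could only be among the higher ones.

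**Figure D2:**
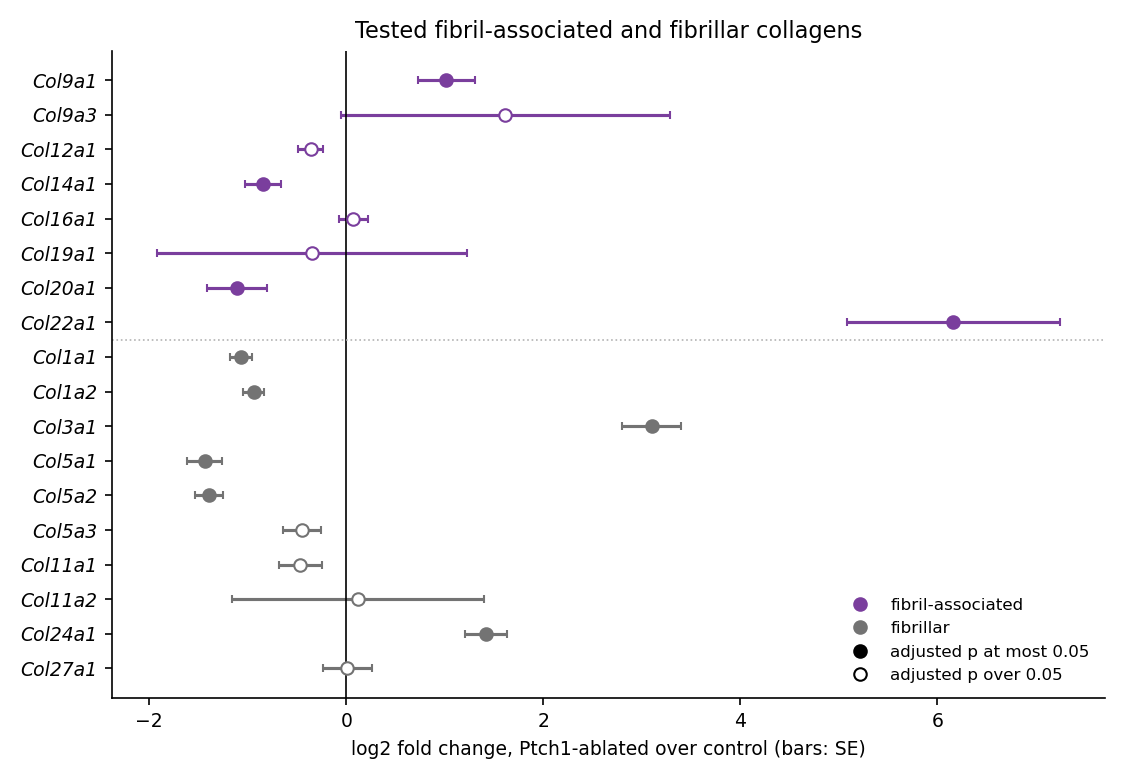
Log2 fold change of Ptch1-ablated over control with its SE for the 8 tested fibril-associated collagens (purple) and the 10 tested fibrillar collagens (grey), filled where the adjusted p was at most 0.05. The value of Col22a1 is a fitted one that depends on the prior count, since its controls were at or under 3 counts; the bars of Col9a3 and Col19a1 span 0.

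The fibrillar collagens that these molecules coat also changed. Of 11 such genes, 10 were tested, 2 rose and 4 fell, against 4.68% and 3.80% of all tested genes. Col3a1, the gene of type III collagen, rose by 3.10 ± 0.30 on the log2 scale (8.58-fold, edgeR adjusted p = 3.53e-05) and Col24a1 by 1.42 ± 0.21 (2.67-fold, adjusted p = 0.0011). Col1a1, the most abundant of them, fell by 1.06 ± 0.11 (2.09-fold lower, adjusted p = 6.86e-05), as did Col1a2, Col5a1 and Col5a2, while the type II collagen gene Col2a1 had no more than 1 count in any library. The summed TPM of the 9 fibril-associated members was 1080, 1140 and 1300 in control libraries, against 1100, 1370 and 1010 after ablation, and these overlapped. The sum of the 11 fibrillar genes was 26900 to 34700 in the controls and 14800 to 19600 in the ablated libraries. Per 100 TPM of fibrillar collagens there were therefore 4.04, 3.6 and 3.74 TPM of fibril-associated collagens in control libraries, against 5.61, 7.02 and 6.87 after ablation. The groups did not overlap, with means of 3.79 ± 0.222 and 6.5 ± 0.774. TPM was used as deposited, without TMM factors. With limma on log2(TPM + 1), log2 fold changes of all genes were higher than in the reported analysis by a median of 0.20. Sums in TPM, here and for the other lists, carry that shift between the groups, whereas ratios within a library do not.

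Relative to Col1a1 alone, the 5 members with over 100 counts in every library were compared. Col16a1 stood at 1.47, 1.3 and 1.71 TPM per 100 TPM of Col1a1 in control libraries, against 3.03, 3.21 and 3.68 after ablation, a 2.22-fold difference. Col12a1 stood at 4.24, 3.8 and 3.61 in control libraries, against 5.02, 7.35 and 6.67 after ablation, a 1.62-fold difference. Col9a1 stood at 0.0769, 0.0515 and 0.0652 in control libraries, against 0.267, 0.162 and 0.41 after ablation, a 4.09-fold difference. For these 3 members every ablated library was above every control. Each reached the smallest p the exact permutation test can give (two-sided p = 0.1, and 0.2 after adjustment over 6 ratios). Col1a1 itself had 17805 to 22473 TPM in the controls and 9024 to 12590 in the ablated libraries. An unchanged gene would therefore also stand higher on this scale, and Col12a1 and Col16a1 did not pass the edgeR test themselves. The share of all genes that separate on this scale was not computed.

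Col14a1 stood at 0.251, 0.234 and 0.311 TPM per 100 TPM of Col1a1 in control libraries, against 0.308, 0.268 and 0.362 after ablation (exact permutation p = 0.3). Col20a1 stood at 0.0559, 0.0416 and 0.0651 in control libraries, against 0.0551, 0.0399 and 0.0651 after ablation (exact permutation p = 0.7). The groups overlapped for both, so the members that fell did so alongside Col1a1, by amounts that this number of libraries could not set apart from its fall. All of these ratios share the Col1a1 values as denominator.

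**Figure D3:**
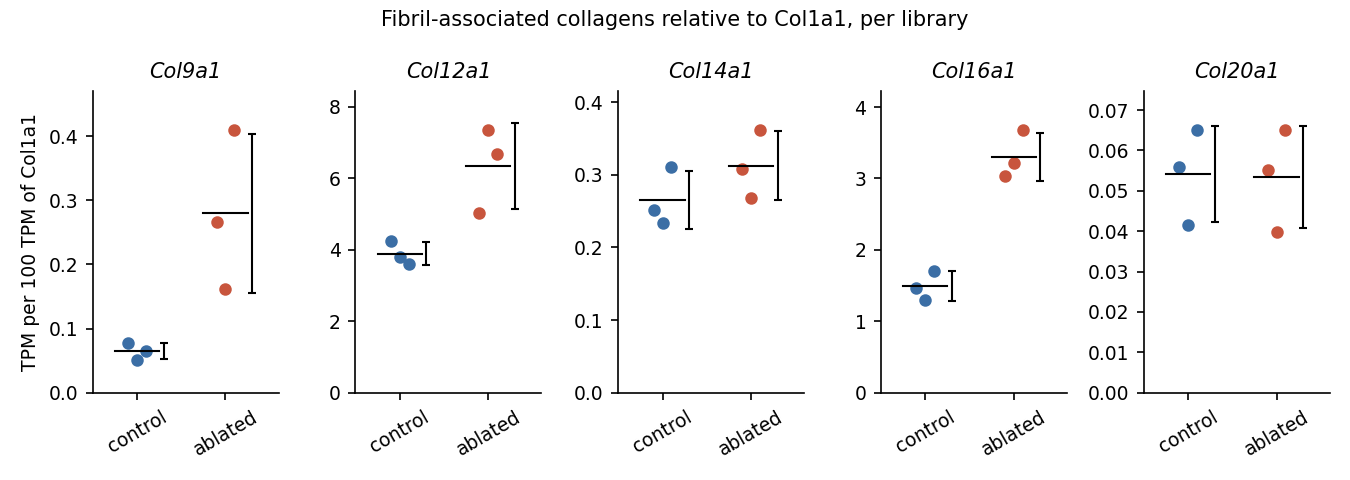
TPM of 5 members per 100 TPM of Col1a1 in each library, with lines at group means and bars of 1 SD (n = 3 per group); each panel has its own axis from 0. Relative to Col1a1, which itself fell, Col9a1, Col12a1 and Col16a1 are higher in all 3 ablated libraries. The groups overlap for Col14a1 and Col20a1.

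Within the family, members differed in how their shares of the summed TPM compared between the groups. Col12a1 made up 69.5%, 70% and 62.6% in control libraries, against 57.7%, 66.6% and 59.3% after ablation, and Col16a1 averaged 25.9% ± 3.26 and 32.2% ± 2.89 (SD, n = 3 each); the groups overlapped for both. Col14a1 took 4.11% to 5.38% in the controls and 2.43% to 3.53% in the ablated libraries, which did not overlap. Col9a1 took 0.95% to 1.26% and then 1.47% to 3.65%, again without overlap.

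Known binding partners of the family were examined from a list of 12 genes, of which 11 were in the deposited data and 10 were tested. By the edgeR test 2 rose and 0 fell, against 4.68% and 3.80% of all tested genes. These shares also apply to the edgeR counts of the other lists. At an unadjusted p under 0.05, 4 partners were higher and 2 lower. The share of all genes at an unadjusted p was not computed, for this list or the others. DESeq2 called 2 higher and 1, Matn4, lower, and limma called 3 higher and 0 lower. The integrin gene Itga2 had 0, 3 and 16 counts in control libraries, against 39, 98 and 46 after ablation (log2 fold change 3.13 ± 1.33, edgeR adjusted p = 0.202). Fmod, which encodes fibromodulin, a proteoglycan bound by type XII collagen, rose by 1.16 ± 0.10 on the log2 scale (2.23-fold, edgeR adjusted p = 2.07e-05). Matn2, a matrilin that bridges matrix networks, rose by 1.18 ± 0.20 (2.27-fold, adjusted p = 0.00287). Dcn, the gene of decorin, bound by types XII and XIV, had a log2 fold change of -0.32 ± 0.13 (adjusted p = 0.177), and Tnxb, the gene of tenascin-X, one of -0.26 ± 0.23 (adjusted p = 0.601). Comp, whose product binds type IX collagen in cartilage, had 76, 11 and 6 counts in control libraries, against 243, 134 and 131 after ablation; the groups did not overlap, but its spread was wide (log2 fold change 2.29 ± 0.87, adjusted p = 0.15), although it passed with limma on TPM.

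Col9a1 is best known from cartilage, so a list of 13 cartilage genes was set beside it. Of the 11 that were listed in the deposited data, 8 were tested, 0 rose by the edgeR test (1 at an unadjusted p under 0.05, Comp, which also rose with limma but not with DESeq2) and 1 fell, Cnmd, the gene of chondromodulin, by 2.10 ± 0.44 on the log2 scale (adjusted p = 0.0098). The summed TPM of these 11 genes was 46.1 to 65 in the controls and 36.6 to 44.6 in the ablated libraries, without overlap. Sox9, the main transcription factor of cartilage, had 73, 5 and 1 counts in control libraries, against 78, 74 and 69 after ablation (adjusted p = 0.603). In scaled counts Sox5 was lower in every ablated library than in every control (log2 fold change -0.78 ± 0.40, edgeR adjusted p = 0.3). Of 6 chondrocyte markers, 5 were listed and 2 were tested; neither passed with edgeR, DESeq2 or limma, and at an unadjusted p under 0.05 edgeR had 0 of them higher, limma on log2(TPM + 1) had 1 and limma on log2(TPM + 0.1) had 2. Their summed TPM was 0.02 to 1.68 in the controls and 2.61 to 3.54 in the ablated libraries. Acan, the gene of the cartilage proteoglycan aggrecan, had 0, 26 and 0 counts in control libraries, against 29, 111 and 73 after ablation, and its TPM did not overlap between the groups (log2 fold change 2.70 ± 1.55, edgeR adjusted p = 0.37). Col2a1, Matn3 and Hapln1 were each at 0 in every control library and in 2 of the 3 ablated libraries.

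Beside Col22a1, known from junctions, a list of 6 tendon and junction genes had 1 gene that rose and 1 that fell by the edgeR test. At an unadjusted p under 0.05 edgeR had 1 higher and 3 lower, and DESeq2 also called Thbs4 lower. The summed TPM of the list was 19500 to 22400 in the controls and 12100 to 13400 in the ablated libraries. Kera, which is also on the keratocyte list, alone had 14566 to 17140 and 5006 to 7107 TPM. Egr1, a transcription factor of tendon cells and of the general early response, rose by 0.56 ± 0.12 (edgeR adjusted p = 0.00882), and Kera, the keratan sulfate proteoglycan keratocan, fell by 1.59 ± 0.13 (adjusted p = 1.08e-05). The summed TPM of 7 skeletal muscle markers was 12.4 to 14.8 in the controls and 23.5 to 26.6 in the ablated libraries, without overlap. Of the 4 tested markers 0 passed with edgeR, DESeq2 or limma (1, Des, was higher at an unadjusted p under 0.05 with edgeR, and 2 markers were with limma). Des, the muscle intermediate filament desmin, which is also on the mural cell list, had 189 to 265 counts in the controls and 337 to 527 in the ablated libraries (log2 fold change 0.82 ± 0.30, edgeR adjusted p = 0.137). Mylpf, a myosin light chain, had 0 to 8 and 13 to 22 counts, Tnnt3, a troponin, had 5 to 21 and 18 to 31, and the muscle actin Acta1 had 9 to 12 and 0 to 5. The groups were thus apart for Des and Mylpf in the upward direction and for Acta1 in the downward direction, and Myh4 had at most 1 count in any library.

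Of the 18 genes that fold, modify and crosslink collagens, 17 were tested, and 2 fell by the edgeR test, 3 by DESeq2 and 1 by limma. By each of these tools 0 rose, and 0 were higher at an unadjusted p under 0.05. Plod1, a lysyl hydroxylase, fell by 0.73 ± 0.11 on the log2 scale (adjusted p = 0.00106), and Lox, the oxidase that starts crosslinking, fell by 0.80 ± 0.15 (adjusted p = 0.00577).

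Other cell type markers also moved with the groups. Of 6 mural cell markers 3 rose, and their summed TPM was 449 to 521 in the controls and 864 to 934 in the ablated libraries. Of 5 vascular endothelial markers 3 rose (247 to 331 against 357 to 399), while Kdr, the most abundant of them, had a log2 fold change of -0.40 ± 0.14 (edgeR adjusted p = 0.112) and was called lower by DESeq2. Of 5 Schwann cell markers 1 rose (130 to 145 against 184 to 205). Of 6 tested corneal epithelial markers 4 fell and 1 rose, with summed TPM of 73.6 to 101 in the controls and 3.54 to 8.44 in the ablated libraries. The keratin genes Krt5, Krt14, Krt15 and Krt19 fell. Krt12 rose against that sum, with 0 counts in every control library and 21, 49 and 52 after ablation (edgeR adjusted p = 0.0177). Of 6 corneal endothelial markers 2 rose, Col8a1 (4.97-fold, edgeR adjusted p = 9.8e-05) and Car3 (0, 12 and 0 counts in control libraries, against 120, 217 and 268 after ablation; adjusted p = 0.0163), and Slc4a11 (4.35-fold, adjusted p = 0.0541) was also called higher by DESeq2 and limma. The summed TPM of that list overlapped (329 to 381 against 280 to 459), with Col8a2 alone at 312 to 367 in the controls and 215 to 399 in the ablated libraries. Of 6 leukocyte markers 1 rose, Itgam (1.73-fold, adjusted p = 0.0316), and the summed TPM overlapped (1260 to 1470 against 1190 to 1580). Of 3 tested melanocyte markers 0 passed with edgeR, DESeq2 or limma, 0 had an unadjusted p under 0.05, and the summed TPM overlapped (1.28 to 5.59 against 2.48 to 5.83). The part of these lists, and of the muscle and chondrocyte lists, in the values of Col9a1, Col14a1, Col20a1 and Col22a1 was not tested.

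For the most abundant pair, the genes with the most similar pattern over the 6 libraries were sought among 11055 genes, by the Euclidean distance of centred log2 CPM. Nearest to Col12a1 were Klf7 (distance 0.117), Fam76a (0.182) and Etv1 (0.193). Nearest to Col16a1 were Cog6 (0.0964), Wdr20 (0.152) and Zfp68 (0.153). None of these 6 genes passed the edgeR test between the groups (adjusted p from 0.156 to 0.995).

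**Figure D4:**
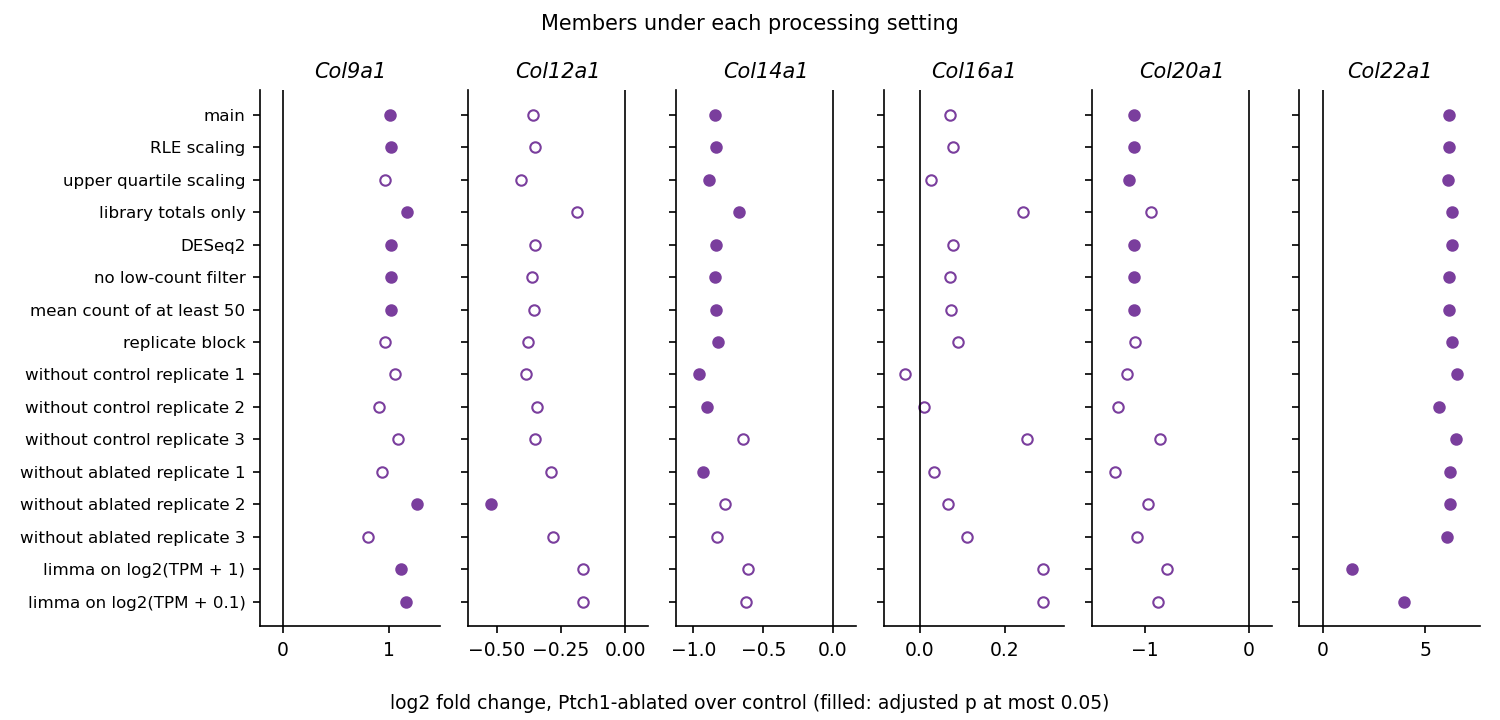
Log2 fold change of 6 members under the reported analysis and 15 alternative settings, filled where the adjusted p was at most 0.05; each panel has its own axis and a line at 0. Col22a1 is filled throughout, Col9a1, Col14a1 and Col20a1 lose the call in 7, 5 and 10 settings, and Col12a1 gains it without ablated replicate 2.

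Across those settings the 4 called members kept their direction. Col22a1 alone kept its call in all 15, although in the reported analysis its counts in the ablated libraries alone brought it into the test. Its log2 value was lower on the log2(TPM + pseudocount) scale, 1.43 with a pseudocount of 1 and 3.95 with 0.1, because the pseudocount lifts the near-empty controls.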

How the data were processed

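RNA from sorted keratocytes was sequenced in 3 control and 3 Ptch1-ablated libraries. The labels name an Illumina TruSeq kit and the study's methods name rRNA depletion and a BGISEQ platform; which applies was not settled. Per the labels the authors used Bowtie2 2.2.5 and RSEM 1.2.12 with the build mm9; annotation release and strandedness are not given in the sources used here. The deposited table holds estimated counts (expected counts from RSEM, 18.6% of them not whole), TPM and FPKM per gene and library; the authors' group averages and comparison columns were not used.

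Estimated counts were rounded and tested with edgeR 4.0.16 (filterByExpr, TMM scaling, quasi-likelihood test, two-sided), adjusted by the Benjamini-Hochberg method over 13888 genes; the fit was tested on simulated data. The library totals set a floor of 3 counts, 0.121 to 0.158 CPM (counts scaled to library size), which covers counting error only. Deposited TPM served for levels and ratios, and deposited FPKM, with counts, for effective lengths. Ratios had exact permutation tests in scipy 1.17.1. Alternatives were other scalings, DESeq2 1.42.0, limma 3.58.1 on log2(TPM + 1) and log2(TPM + 0.1), other filters, a replicate block, leaving out each library, and a 2-fold minimum; upper quartile and library total scaling, and the block for the ratio, were chosen after seeing the data. Every member is named, with the genes of smallest adjusted p of the partner, cartilage, tendon and crosslinking lists (2 a list), Col1a1 as the base of ratios, binding partners and, for Col12a1 and Col16a1, the 3 nearest genes (mean count 100 or above). Other fibrillar collagens, Sox5 and cell type markers were named after their values were seen. The members and lists were chosen with earlier results of these data known.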

Additional observations from a re-analysis of the deposited data

How the results depend on the processing

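Of the members, 4 passed the test in the reported analysis, 2 with the replicate block, 2 with limma on log2(TPM + 1), 2 with limma on log2(TPM + 0.1), and 1 to 3 when a library was left out. Over all genes 1178 passed, 1813 with DESeq2, 763 with the 2-fold minimum and 778 to 1015 when a library was left out. With the 2-fold minimum 3 members passed. Col19a1 turned to 0.084 with the replicate block and 0.056 with limma on log2(TPM + 0.1), and ranged from -0.94 to 1.919 when a library was left out; Col16a1 ranged from -0.035 to 0.252. The cause was not tested. Scaling moved the split of calls: 650 genes rose and 528 fell in the reported analysis, 597 and 601 with upper quartile scaling, 1021 and 388 with library totals, 1181 and 442 with limma on log2(TPM + 1), and 1041 and 388 on log2(TPM + 0.1). The last 3 moved the median of all genes by 0.17, 0.20 and 0.21 (log2). Same-numbered libraries of the groups showed no strong shared deviation (r = -0.02, -0.06 and 0.04). With 3 libraries in each group this cannot exclude a pairing by number. In edgeR with the block, Col9a1 (0.97, adjusted p = 0.0543) and Col20a1 (-1.10, adjusted p = 0.0696) did not pass. The log2 ratio of Col12a1 to Col14a1 was 0.45 with the block (exact p = 0.5), 0.46 from TPM and 0.23 to 0.61 when a library was left out. Low and uneven counts limit what Col9a2, Col9a3 and Col19a1 can show. In libraries of similar totals, Col9a3 had 0 to 84 counts and Col19a1 had 0 to 29.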
